A study of Mus musculus with 7 samples.

Results

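RAB GTPases are the largest family of small GTP-binding proteins, and each directs traffic to or from a particular membrane. In the GTP-bound state a RAB recruits effectors such as tethers and motors. Exchange factors switch it on, GTPase-activating proteins switch it off, and a geranylgeranyl anchor holds it on the membrane. Megakaryocytes make the alpha and dense granules that platelets later release, and dense granules belong with melanosomes and lytic granules to the lysosome-related organelles. The genes of mouse RAB GTPases were taken from the count table as every protein-coding row whose symbol is Rab followed by a number and at most a short suffix, which gave 57 of 21615 genes. Of these, 5 with known roles in granules were set apart, namely Rab27a, Rab27b, Rab32, Rab38 and Rab44.

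RNA was measured in 7 bulk libraries of megakaryocyte progenitors (MkPs) sorted from the bone marrow of untreated wild-type C57BL/6 mice as lin- CD117+ Sca-1- CD150+ CD41+ cells. A total of 3 libraries came from CD48-/lo MkPs (replicates 1, 3 and 4) and 4 from CD48hi MkPs (replicates 1, 3, 4 and 5). The study places these subsets on separate routes to platelets, and the comparison asks how their transcripts differ. The labels give no age, and do not say whether libraries came from separate mice, so p-values measure the spread between these libraries, which may be technical.

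Sorted cells numbered 5348 to 6497 per CD48-/lo library and 14033 to 20826 per CD48hi library, and total counts were 48899037 to 51161449 and 51537445 to 69324909. Mitochondrial transcripts took 2.61%, 0.482% and 2.91% of counts in CD48-/lo replicates 1, 3 and 4, against 0.138% to 0.400% in CD48hi libraries, so that CD48-/lo replicate 3 lay near the CD48hi libraries. Cd48 itself was at 4.98 to 14.0 CPM (counts scaled to the library total) in CD48-/lo MkPs and 15.8 to 43.0 CPM in CD48hi MkPs. Of 12 megakaryocyte markers all were tested, and their summed level was 3729 to 6383 CPM in CD48-/lo MkPs and 4179 to 5212 CPM in CD48hi MkPs. Differences are log2 values of CD48-/lo over CD48hi from edgeR's quasi-likelihood test with the standard error (SE), and a gene was called at a Benjamini-Hochberg adjusted p under 0.05 over all 16653 genes tested. By that rule 0 of the 12 megakaryocyte markers were called. An unadjusted p under 0.05 was reached by 66.7% of them, against 17.2% of all genes, with 5 positive and 3 negative differences. Over the 12 the median difference was 0.63. DESeq2, an alternative test, called 1 with a positive and 2 with a negative difference, against 5.86% of all genes called by that tool. The overlapping sums thus do not show equal levels of each marker.

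Of the RAB transcripts, Rab44 alone was called between the subsets, and most of the others differed by less than 1 on the log2 scale. Of the 57 RAB genes, 51 passed the filter on low counts, with 26 positive and 25 negative differences. The test called 1 of the 51, Rab44, which was lower in CD48-/lo MkPs. That is 1.96% of the RAB genes tested, against 0.192% of all genes tested, 0.108% lower and 0.0841% higher in CD48-/lo MkPs, and a single gene carries the share. At an unadjusted p under 0.05 there were 8 RAB genes (15.7%, against 17.2% of all genes). The groups did not overlap for 7 (13.7%, against 14.6%), so both shares lay near the background. In CD48-/lo MkPs 3 of these 7 were the higher ones and 4 the lower ones, against 7.52% and 7.06% of all genes. The median log2 difference was 0.01 over the RAB genes and 0.03 over all genes. For 47 of the 51 (92.2%) the difference was smaller than 1 on the log2 scale, against 80.6% of all genes, and where the mean was 10 CPM or more this held for 30 of 31 (96.8%) against 89.8%. The 4 with larger differences were Rab44, Rab34, Rab39 and Rab12.

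**Figure D1:**
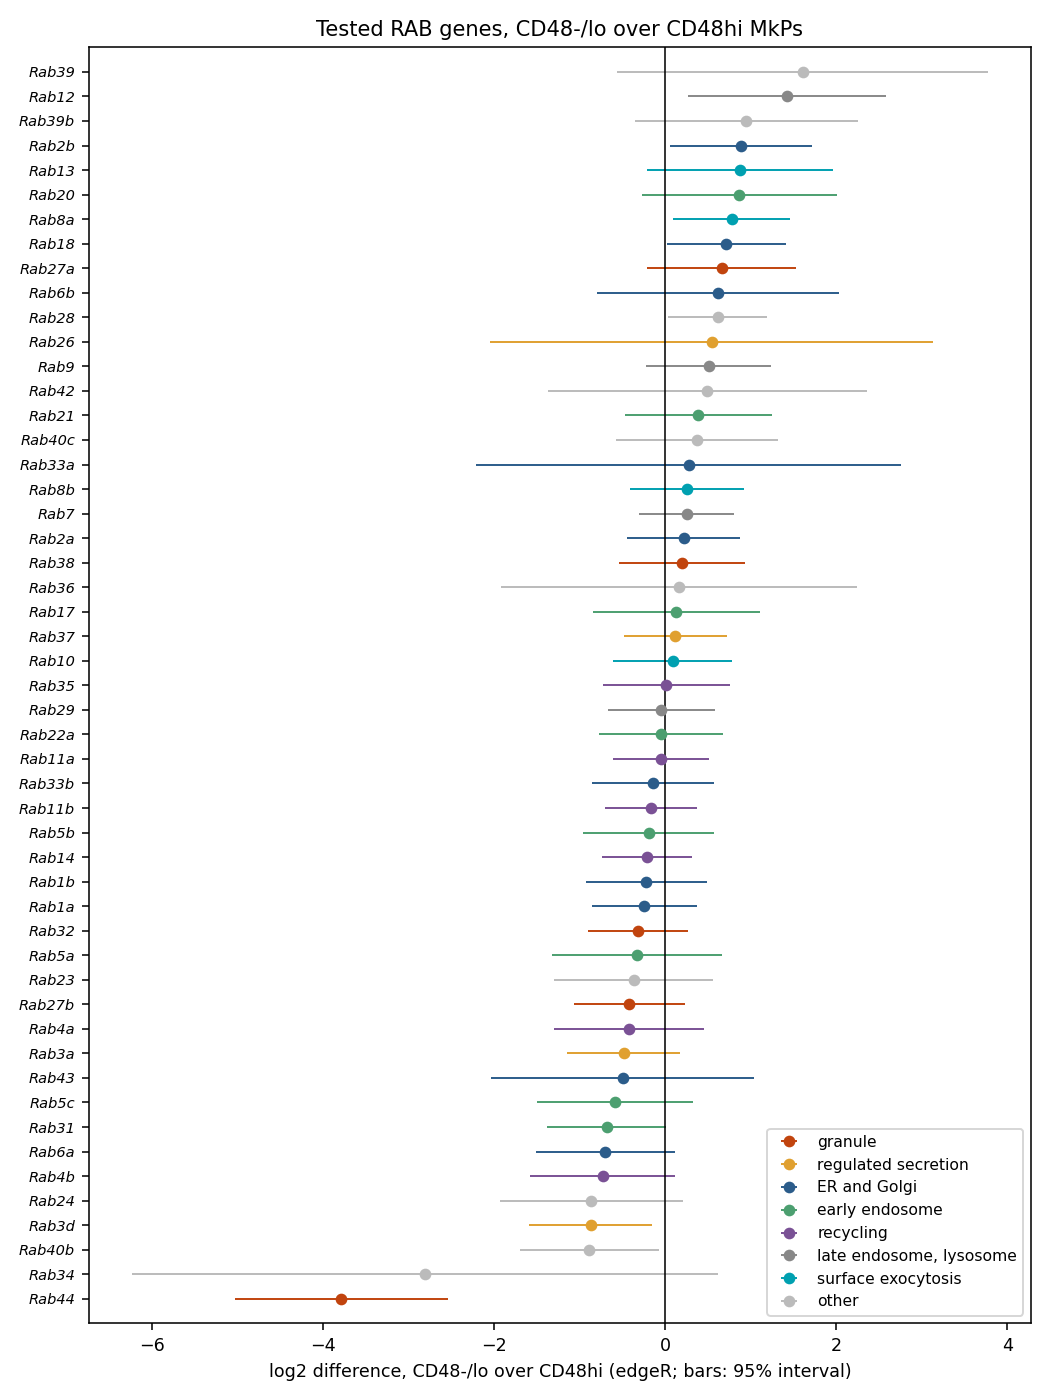
Log2 difference of CD48-/lo over CD48hi MkPs (x axis) for each of the 51 RAB genes tested (y axis), from edgeR with its 95% interval as a bar and coloured by role. Rab44 stands at -3.79 with an interval from -5.03 to -2.54, while the other granule RABs have intervals that include 0.

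The granule RABs other than Rab44 were not called, and 3 of these 4 were among the 8 RAB genes with the highest level per length. Rab27b, which drives secretion of platelet dense granules in mice, came after Rab38 and Rab32 in level per length. It had 516, 684 and 617 CPM in CD48-/lo MkPs, while CD48hi MkPs had 846, 479, 967 and 946 CPM. The groups overlapped through CD48hi replicate 3 alone, which lay below every CD48-/lo library, and the log2 difference was -0.42 ± 0.29 (adjusted p = 0.480, 95% interval -1.07 to 0.23). Rab27a, the close paralogue known from melanosome transport and cytotoxic granule release, had a difference of the opposite sign and a far lower level per length. It had 39.8, 31.4 and 29.8 CPM in CD48-/lo MkPs, while CD48hi MkPs had 10.0, 21.3, 18.4 and 35.5 CPM. Only CD48hi replicate 5 reached the CD48-/lo range, and the log2 difference was 0.66 ± 0.39 (adjusted p = 0.400, interval -0.21 to 1.53).

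Rab32 and Rab38 act as a pair in the biogenesis of melanosomes and, from work in rats and megakaryocytic cell lines, of dense granules. Rab32 had 174, 197 and 167 CPM in CD48-/lo MkPs, while CD48hi MkPs had 302, 198, 199 and 195 CPM. CD48hi replicate 1 stood above the 6 other libraries, which lay within 167 to 199 CPM, and the log2 difference was -0.32 ± 0.27 (adjusted p = 0.557, interval -0.91 to 0.27). Rab38 had 229, 222 and 206 CPM in CD48-/lo MkPs, while CD48hi MkPs had 273, 236, 111 and 143 CPM. The CD48-/lo libraries lay close together and inside the CD48hi range, and the log2 difference was 0.20 ± 0.33 (adjusted p = 0.792, interval -0.54 to 0.93). For these 4 genes the intervals include differences of either sign, so the missing call does not show equal levels.

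Rab44 encodes a large RAB that carries an EF-hand domain beside its GTPase domain and takes part in degranulation of mouse mast cells. It lies at chr17:29114145-29148980 (mm10) and shares no exon with another annotated gene. It had 0.546, 2.00 and 1.09 CPM in CD48-/lo MkPs (29, 105 and 54 counts), while CD48hi MkPs had 12.3, 15.96, 10.5 and 28.3 CPM (795, 868, 546 and 1743 counts). Every CD48-/lo library lay below every CD48hi library, and the lowest CD48hi value was well above the highest CD48-/lo value. The fitted level was 13.8-fold higher in CD48hi MkPs (log2 difference -3.79 ± 0.56, edgeR adjusted p = 0.0390), and the adjusted p was 1.39e-10 by DESeq2 and 0.0233 by limma voom. In a bulk sample, fewer cells that express a gene and less of its RNA per cell cannot be told apart.

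**Figure D2:**
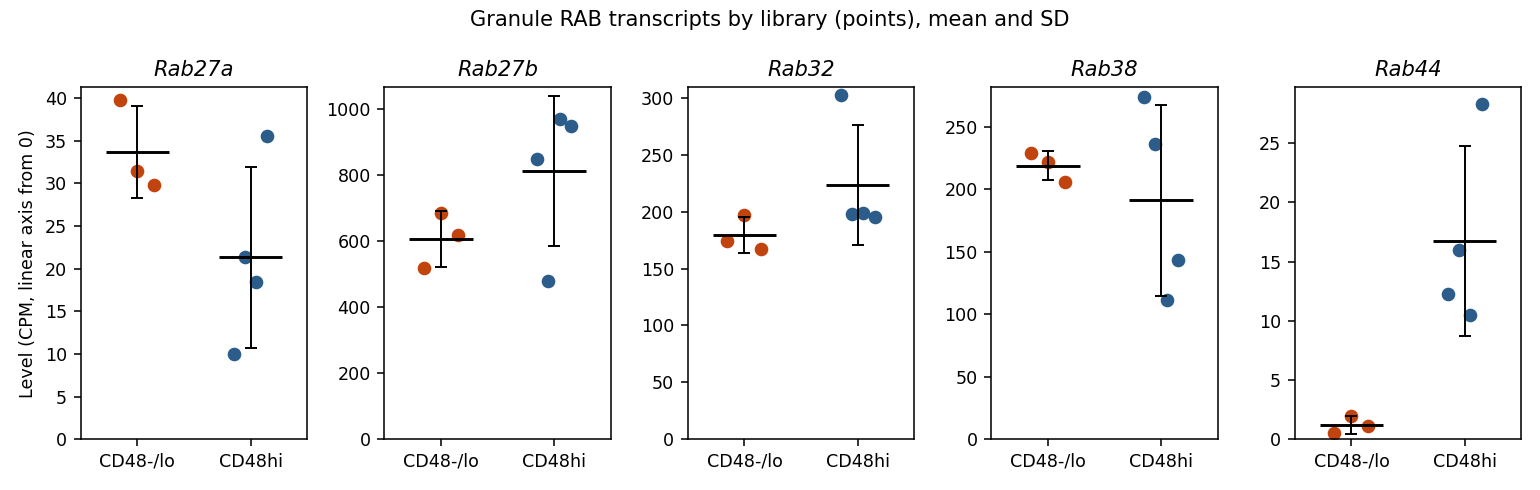
Level of the 5 granule RABs in CPM (y axis, linear from 0, 1 panel a gene) with a point for each library, and the mean and SD as bars, CD48-/lo (n = 3) left of CD48hi (n = 4). Rab44 is the panel in which the groups do not overlap, at 0.546 to 2.00 CPM in CD48-/lo and 10.5 to 28.3 CPM in CD48hi libraries.

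The Rab44 call depended on which library was left out and on the filter, while its direction did not change in any fit made. With 1 library left out at a time the log2 difference was -4.48 to -3.41 and the adjusted p 0.0308 to 0.160, and the call held in 2 of 7 fits, those without CD48hi replicate 4 and without CD48-/lo replicate 3. It was lost without CD48hi replicate 1, 3 or 5 (adjusted p = 0.0621, 0.0710 and 0.0771) and without CD48-/lo replicate 1 or 4 (0.1000 and 0.160). Without CD48-/lo replicate 3 the level was 22.4-fold higher in CD48hi MkPs. With no filter on low counts the adjusted p was 0.0676.

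Of 5 marker lists of other cell types, 4 had summed levels that did not overlap between the groups, as for Rab44. The sum of the erythroid list overlapped, though most of its single genes did not. Of a list of 12 basophil and mast cell genes, 9 were in the table and 8 tested, with 7 negative and 1 positive differences, and 1 was called, Mcpt8, a basophil protease that was lower in CD48-/lo MkPs. The summed level of the list was 27.7, 11.04 and 23.5 CPM in CD48-/lo MkPs, while CD48hi MkPs had 47.1, 83.3, 108.8 and 128.2 CPM. Cd200r3, a receptor of basophils and mast cells, was at 0 in every CD48-/lo library and in CD48hi replicates 1 and 3, and at 1.64 and 1.36 CPM in CD48hi replicates 4 and 5. Ms4a2, the beta chain of the high-affinity IgE receptor, had 0.207, 2.08 and 0 CPM in CD48-/lo MkPs and 4.64, 14.8, 15.3 and 23.3 CPM in CD48hi MkPs (log2 difference -4.24 ± 1.18, edgeR adjusted p = 0.164). Within the CD48-/lo group Rab44 and Ms4a2 were both highest in replicate 3, while the sum of the list was lowest there. Fcer1a, the alpha chain of that receptor, was the member with a positive difference, at 16.03, 2.44 and 13.3 CPM in CD48-/lo MkPs and 4.63, 5.88, 3.72 and 5.52 CPM in CD48hi MkPs (1.10 ± 0.53, adjusted p = 0.314). Fcer1a was the list's largest member in CD48-/lo replicates 1 and 4, and its lower value in replicate 3 made up most of that library's lower sum.

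All 10 genes of the primary granule list were tested and Mpo, myeloperoxidase, was called lower in CD48-/lo MkPs. The list summed to 147, 62.5 and 125 CPM in CD48-/lo replicates 1, 3 and 4, and to 393 to 576 CPM in CD48hi MkPs. Its lowest sum was thus in CD48-/lo replicate 3, where Rab44 was highest within that group. Of 10 monocyte and dendritic cell genes 8 were tested, and Irf8 and Ccr2 were called lower in CD48-/lo MkPs. That list summed to 9.04 to 16.5 CPM in CD48-/lo MkPs and 44.4 to 135.5 CPM in CD48hi MkPs. Of 8 lymphoid genes 5 were in the table and 2 tested, edgeR called 0 and both had an unadjusted p under 0.05 and were called lower by DESeq2, and the list summed to 0.935 to 2.85 CPM in CD48-/lo MkPs and 4.12 to 9.91 CPM in CD48hi MkPs. All 10 erythroid genes were tested, with 8 positive differences and 3 called higher in CD48-/lo MkPs (Hba-a1, Hba-a2 and Rhd). Their sum was 177 to 320 CPM in CD48-/lo MkPs and 158 to 249 CPM in CD48hi MkPs. That overlap does not show equal levels of each gene, since the median log2 difference was 2.73. In 7 of the 10 every CD48-/lo library was above every CD48hi library, against 7.52% of all genes, and in 1 every one was below. An unadjusted p under 0.05 was reached by 70% of the 10, against 17.2% of all genes. The part of other cell types in the Rab44 result was not tested.

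**Figure D3:**
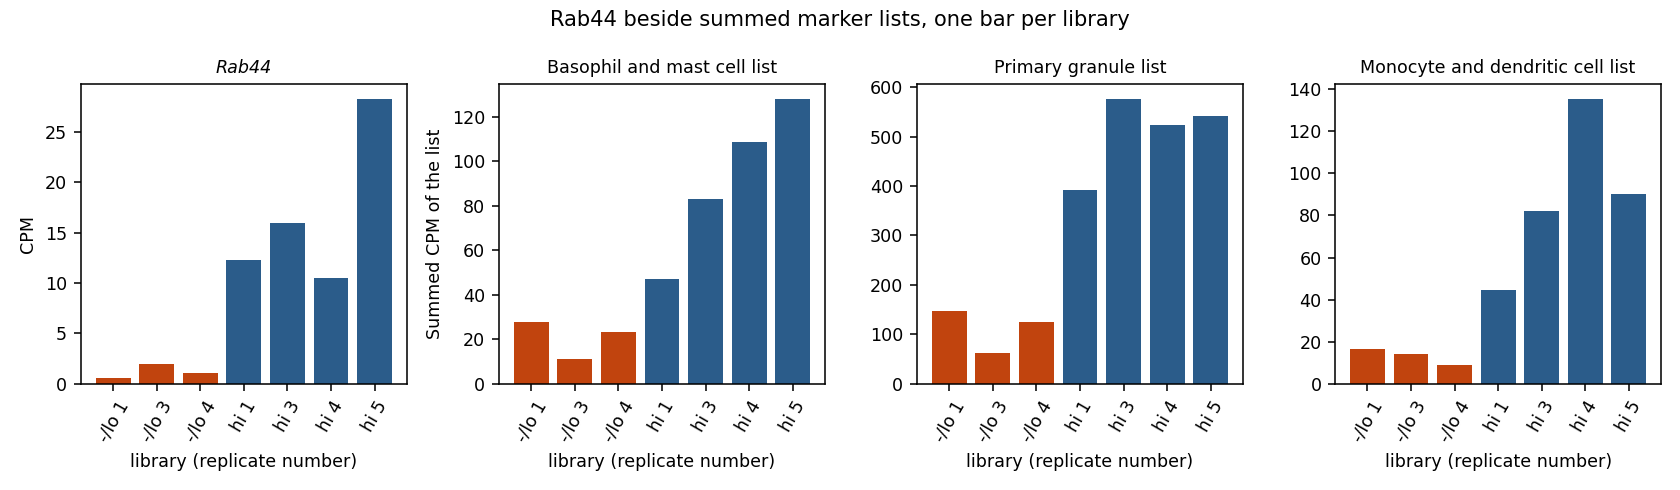
Rab44 (left panel, CPM) and the summed CPM of the basophil and mast cell, primary granule, and monocyte and dendritic cell lists, with 1 bar a library, CD48-/lo left of CD48hi. In each panel all 3 CD48-/lo bars are lower than all 4 CD48hi bars, and the tallest Rab44 bar, 28.3 CPM, is CD48hi replicate 5.

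The share of the granule RABs among all RAB transcripts overlapped between the subsets. The 57 genes summed to 4860 to 5447 CPM in CD48-/lo MkPs and 4747 to 5696 CPM in CD48hi MkPs. After division of each gene by its length the 5 granule RABs made up 20.9%, 20.4% and 20.8% in CD48-/lo MkPs, against 25.3%, 22.4%, 18.2% and 19.5% in CD48hi MkPs. The ranges overlapped, with the widest spread among CD48hi libraries.

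Among the other RABs of regulated secretion, Rab3a and Rab3d were lower in every CD48-/lo library than in any CD48hi library, and neither passed the test. Rab3d, a RAB of secretory granules in exocrine and haematopoietic cells, had 40.9, 53.9 and 28.1 CPM in CD48-/lo MkPs and 65.3, 59.2, 101.6 and 74.2 CPM in CD48hi MkPs (log2 difference -0.87 ± 0.32, adjusted p = 0.238). Rab3a, the synaptic vesicle RAB, had 6.67 to 7.92 CPM in CD48-/lo MkPs and 8.87 to 12.7 CPM in CD48hi MkPs (-0.48 ± 0.30, adjusted p = 0.414), and 29 of its exon bases are shared with Mpv17l2 on the opposite strand. Rab37, a RAB of mast cell granules, had the highest level per length of this group, with 282 to 315 CPM in CD48-/lo MkPs and 197 to 330 CPM in CD48hi MkPs (0.12 ± 0.27, adjusted p = 0.854). Rab26 was near the filter, with means of 0.937 and 0.641 CPM in CD48-/lo and CD48hi MkPs. Rab3c had 12 counts, all in CD48-/lo replicate 4, and 0 in CD48hi MkPs. With 3 counts over the CD48hi group as the floor, the CD48-/lo level of Rab3c was 6.30-fold that floor. This ratio leaves out the counting error of the 12 counts and rests on 1 library.

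RABs of the endoplasmic reticulum (ER) and Golgi apparatus split evenly, with 5 positive and 5 negative differences among 10 tested. Rab18, found on the ER and on lipid droplets, had 286, 337 and 324 CPM in CD48-/lo MkPs, while CD48hi MkPs had 172, 285, 115 and 198 CPM. The groups were separated by less than 1 CPM, between CD48-/lo replicate 1 and CD48hi replicate 3, and the log2 difference was 0.71 ± 0.31 (adjusted p = 0.281). Rab2b, a Golgi RAB, had 4.41, 3.62 and 5.76 CPM in CD48-/lo MkPs and 2.04, 2.68, 2.46 and 2.76 CPM in CD48hi MkPs (0.89 ± 0.37, adjusted p = 0.268). Rab2b shares 195 exon bases with Tox4, which averaged 136 CPM, on the opposite strand. Counts of overlapping genes cannot be told apart where strand was not used, and the sources used here do not give the strand setting.

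Rab1a and Rab1b, which carry ER-to-Golgi traffic, were among the 6 highest RABs per length. Rab1a had 319 to 369 CPM in CD48-/lo MkPs and 330 to 570 CPM in CD48hi MkPs (log2 difference -0.24 ± 0.28, adjusted p = 0.675). Rab1b had 201 to 317 CPM in CD48-/lo MkPs and 191 to 435 CPM in CD48hi MkPs (-0.22 ± 0.32, adjusted p = 0.752). Neither gene separated the subsets.

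On the endocytic path, none of the 8 early endosome and none of the 6 recycling RABs tested had an unadjusted p under 0.05. Rab31, a RAB of early endosomes and trans-Golgi carriers, came closest and had the highest level per length of the early endosome RABs, with 104, 124 and 72.1 CPM in CD48-/lo MkPs and 149, 109, 212 and 174 CPM in CD48hi MkPs (log2 difference -0.69 ± 0.32, adjusted p = 0.295). The groups overlapped through CD48-/lo replicate 3 and CD48hi replicate 3. Rab20 was scarce, at 4.65 to 8.12 CPM in CD48-/lo MkPs and 1.52 to 5.59 CPM in CD48hi MkPs (0.86 ± 0.52, adjusted p = 0.401). Rab11a, the RAB of recycling endosomes, had the highest level per length of all RABs, and its means were 526 ± 91.4 CPM in CD48-/lo MkPs and 545 ± 83.8 CPM in CD48hi MkPs (SD, log2 difference -0.05 ± 0.25, adjusted p = 0.939).

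Rab7, which governs late endosome and lysosome traffic, was second per length, with 360, 475 and 425 CPM in CD48-/lo MkPs and 343, 355, 284 and 430 CPM in CD48hi MkPs (log2 difference 0.25 ± 0.25, adjusted p = 0.627). Rab12, which directs transferrin receptor from recycling endosomes to lysosomes, had the largest positive difference among RABs whose mean log2 CPM was 1 or more. It had 3.90, 2.54 and 10.9 CPM in CD48-/lo MkPs, while CD48hi MkPs had 2.56, 1.95, 2.58 and 1.46 CPM. The log2 difference was 1.43 ± 0.52 (adjusted p = 0.234) and 0.59 without CD48-/lo replicate 4 (adjusted p = 0.724), the highest library, and CD48-/lo replicate 3 lay inside the CD48hi range.

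Rab7b, which moves cargo between late endosomes and the Golgi in myeloid cells, did not pass the edgeR filter. It had 0 counts in all CD48-/lo libraries, and 1, 7, 25 and 34 counts in CD48hi replicates 1, 3, 4 and 5. With a floor of 3 counts over the CD48-/lo group, the CD48hi level of Rab7b was 14.2-fold that floor. This ratio leaves out the counting error and the spread of the CD48hi libraries. CD48hi replicate 1, at 0.015 CPM, lay below the floor of 0.020 CPM, and most CD48hi counts came from replicates 4 and 5. DESeq2, which gave an adjusted p for some genes below the edgeR filter, gave 0.0422 for Rab7b. It called Rab7b and Rab44 among the RAB genes with an adjusted p, against 5.86% of all genes with one. Limma voom called Rab44 alone of the 51, against 2.36% of all genes. Rab7b thus had the same direction as Rab44 at a far lower count.

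All 4 RABs of transport to the cell surface (Rab8a, Rab8b, Rab10 and Rab13) had positive differences, from 0.09 to 0.87 on the log2 scale, and none was called. Rab8a, a RAB of carriers from the Golgi to the plasma membrane, had 245, 125 and 245 CPM in CD48-/lo MkPs, while CD48hi MkPs had 92.0, 126, 143 and 118 CPM. CD48-/lo replicates 1 and 4 were above every CD48hi library and replicate 3 was not. The log2 difference was 0.78 ± 0.31 (adjusted p = 0.251), 0.92 without CD48-/lo replicate 3 (adjusted p = 0.180) and 0.02 with that replicate as the CD48-/lo group. Rab13, known from tight junction traffic, had 9.40, 4.56 and 7.68 CPM in CD48-/lo MkPs and 7.65, 2.21, 3.24 and 2.65 CPM in CD48hi MkPs (0.87 ± 0.49, adjusted p = 0.376).

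Of the 11 RABs with other or less settled roles, 10 were tested and none called. Rab28, known from the cilium of photoreceptors, had the highest level per length of these, with 79.4, 117 and 104 CPM in CD48-/lo MkPs and 54.9, 72.2, 71.4 and 62.7 CPM in CD48hi MkPs. The groups did not overlap, and the log2 difference was 0.62 ± 0.26 (adjusted p = 0.270). Rab40b, a RAB with a SOCS box that joins a ubiquitin ligase, had 8.04, 8.68 and 4.29 CPM in CD48-/lo MkPs and 11.8, 9.18, 13.7 and 17.1 CPM in CD48hi MkPs (-0.89 ± 0.37, adjusted p = 0.263). Its groups were separated by the gap between CD48-/lo replicate 3 and CD48hi replicate 3.

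Rab24, linked to autophagy, had 1.07 to 1.85 CPM in CD48-/lo MkPs and 1.77 to 3.29 CPM in CD48hi MkPs (log2 difference -0.86 ± 0.48, adjusted p = 0.374), and 1258 of its exon bases are shared with Prelid1 on the opposite strand. Rab39b, a neuronal RAB, had 1.68 to 4.07 CPM in CD48-/lo MkPs and 0.663 to 2.81 CPM in CD48hi MkPs (0.95 ± 0.59, adjusted p = 0.417). The groups overlapped for both genes. Rab34, which acts in the formation of cilia, had 0.019, 0.038 and 0.485 CPM in CD48-/lo MkPs and 1.06, 2.98, 0 and 1.06 CPM in CD48hi MkPs (log2 difference -2.81 ± 1.55, adjusted p = 0.368). Rab39 had 2.60, 2.06 and 0.263 CPM in CD48-/lo MkPs and 0.941, 0.037, 0.501 and 0.666 CPM in CD48hi MkPs (1.61 ± 0.98, adjusted p = 0.411). Their intervals were wide and included 0, and 1 library of a group lay across the other group for each.

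The 6 RAB genes that did not pass the filter had few counts, most of them in 1 or 2 libraries of a group. Besides Rab7b and Rab3c, Rab9b had 93 counts in CD48-/lo replicate 1 and 15 in CD48hi replicate 1, and 0 in the 5 other libraries. Rab30 had 57 and 33 counts in CD48-/lo replicates 3 and 4 and 0 in replicate 1, against 10 counts over the 4 CD48hi libraries. Rab19 had 1 count in CD48-/lo MkPs and 32 in CD48hi MkPs, and Rab25 had 9 and 18. EdgeR did not test these genes. DESeq2 did not call Rab30 (adjusted p = 0.211). It gave no adjusted p for Rab9b, Rab19, Rab25 and Rab3c, so these could not be called by either tool.

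Gene length sets how many reads a transcript gives, so levels were compared between RABs only as CPM per kilobase of gene length. On that scale Rab11a was first, with a mean of 176 in CD48-/lo MkPs and 182 in CD48hi MkPs, followed by Rab7 with 161 and 135, Rab38 with 139 and 121, Rab1b with 113 and 131, Rab1a with 88.9 and 105, and Rab32 with 76.7 and 95.6 CPM per kilobase. Rab6a and Rab27b came next, so Rab38, Rab32 and Rab27b held ranks 3, 6 and 8 of 57. Over the 7 libraries Rab38 ran from 70.5 to 173 CPM per kilobase and Rab1b from 84.1 to 192. The ranges of all neighbours among the first 8 overlapped, so the order of neighbours lies within the spread of the libraries. Ranks further apart could be separate. The lowest Rab11a library, at 140.5, was above the highest of Rab6a (139.1), Rab32 (129.2) and Rab27b (90.6 CPM per kilobase). Rab27a, with 8.68 in CD48-/lo MkPs and 5.50 in CD48hi MkPs, and Rab44, with 0.240 and 3.31 CPM per kilobase, were far below the other granule RABs in every library.

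**Figure D4:**
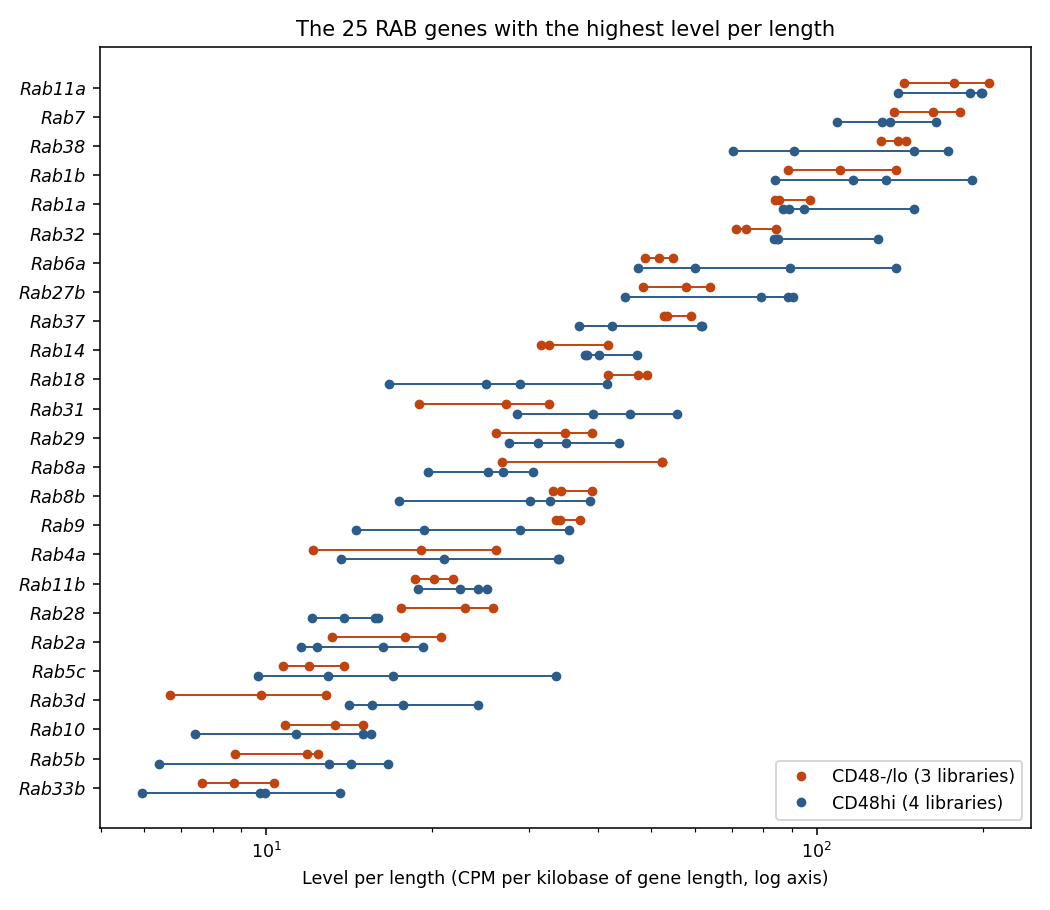
Level per length (x axis, CPM per kilobase of gene length, log scale) of the 25 highest RAB genes (y axis, ordered by the mean of 7 libraries), with a point for each library and a line over the range, CD48-/lo above CD48hi. Rab38, Rab32 and Rab27b stand at ranks 3, 6 and 8, and for Rab38 the CD48hi range from 70.5 to 173 encloses the CD48-/lo libraries.

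The balance between paralogues was compared within each library, as the ratio of their CPM per kilobase, for 14 pairs. In 9 pairs the same paralogue was the higher one in all 7 libraries, as for Rab27b over Rab27a and Rab11a over Rab11b. Rab27a over Rab27b was 0.212, 0.126 and 0.133 in CD48-/lo MkPs, against 0.033, 0.122, 0.052 and 0.103 in CD48hi MkPs. It was the 1 pair of 14 whose groups did not overlap, with mean log2 ratios of -2.71 ± 0.41 in CD48-/lo MkPs and -3.87 ± 0.88 in CD48hi MkPs (SD). The exact two-sided permutation test gave p = 0.057 (adjusted p = 0.400 over the 14 pairs). That is the smallest two-sided p this test can give with 3 and 4 libraries, so no pair could reach 0.05. Rab32 over Rab38 was 0.513, 0.600 and 0.546 in CD48-/lo MkPs, against 0.745, 0.564, 1.21 and 0.919 in CD48hi MkPs (exact p = 0.114, adjusted p = 0.400), and CD48hi replicate 4 was the library in which Rab32 was the higher one.

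Genes that act on RABs were taken from 5 lists of 96 genes, of which 89 were in the table and 88 tested. EdgeR called 0 of the 88, and 15 had an unadjusted p under 0.05 (6 higher and 9 lower in CD48-/lo MkPs). These 15 are 17.05% of the 88, against 17.2% of all genes, and the called share of all genes was 0.192%. The median log2 difference was -0.16 over these genes, against 0.03 over all genes. DESeq2 called 6 (4 higher, 2 lower), against its background of 5.86%, and limma voom called 2 of these 6, Rin3 and Rabgap1l.

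Complexes BLOC-1, BLOC-2 and BLOC-3 of Hermansky-Pudlak syndrome, which build dense granules and melanosomes, were listed with Ankrd27, an effector of Rab32 and Rab38. These 14 genes, all tested, had 12 negative and 2 positive differences, with a median of -0.50. Over all genes the median was 0.03, and 48.3% had negative differences. Hps1 and Hps4 form BLOC-3, the exchange factor for Rab32 and Rab38. Hps1 had 53.6, 67.9 and 42.4 CPM in CD48-/lo MkPs and 80.7, 76.3, 96.0 and 129 CPM in CD48hi MkPs (log2 difference -0.81 ± 0.30, edgeR adjusted p = 0.240). Hps4 had 30.5, 31.8 and 22.9 CPM in CD48-/lo MkPs and 34.9, 36.8, 49.1 and 43.7 CPM in CD48hi MkPs (-0.54 ± 0.27, adjusted p = 0.337). Both were lower in every CD48-/lo library than in any CD48hi library, as were Hps5 and Hps6 of BLOC-2, and no member passed the test. Those 4 of 14 are 28.6%, against 7.06% of all genes. At an unadjusted p under 0.05 the list had 1 positive and 2 negative differences (21.4%, against 17.2% of all genes). Over the 88 genes of the 5 lists, 9 (10.2%) were lower without overlap and 4 were higher without overlap, against 7.06% and 7.52% of all genes. Hps3 of the same list overlapped, with 19.7, 36.6 and 32.6 CPM in CD48-/lo MkPs and 34.2, 24.5, 27.6 and 41.9 CPM in CD48hi MkPs (-0.11 ± 0.32, adjusted p = 0.887). For Bloc1s3 and Bloc1s4 the negative differences rested on CD48hi replicates 4 and 5, while CD48hi replicates 1 and 3 lay below every CD48-/lo library.

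Hps6 had 9.42, 13.7 and 8.74 CPM in CD48-/lo MkPs and 16.3, 15.5, 23.3 and 31.9 CPM in CD48hi MkPs (log2 difference -1.03 ± 0.35, adjusted p = 0.215). Dtnbp1, the dysbindin subunit of BLOC-1, had 143, 71.8 and 149 CPM in CD48-/lo MkPs and 59.5, 75.1, 54.2 and 36.7 CPM in CD48hi MkPs (1.10 ± 0.34, adjusted p = 0.188). For Dtnbp1, as for Rab8a, CD48-/lo replicate 3 lay among the CD48hi libraries.

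Of 12 effectors of Rab27 and Rab3, 7 were in the table and none had an unadjusted p under 0.05. Unc13d, the Rab27 effector that primes granules for release, averaged 59.8 ± 4.60 CPM in CD48-/lo MkPs and 59.8 ± 11.7 CPM in CD48hi MkPs (SD). The 3 with the smallest p were the synaptotagmin-like proteins Sytl5, Sytl4 and Sytl1, with log2 differences of 1.96 ± 1.11, 0.31 ± 0.33 and 0.34 ± 0.65. Sytl5 and Sytl1 were scarce, at means of 0.342 and 1.12 CPM in CD48-/lo MkPs and 0.085 and 0.880 CPM in CD48hi MkPs.

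Among 28 exchange factors tested, Rin3, which acts on the Rab5 family, came closest to the threshold. It had 13.9, 13.9 and 13.2 CPM in CD48-/lo MkPs, while CD48hi MkPs had 25.8, 34.6, 38.5 and 43.1 CPM. The groups were well apart (log2 difference -1.38 ± 0.29, edgeR adjusted p = 0.0808, DESeq2 adjusted p = 2.79e-05). Dennd1b, an exchange factor for Rab35, had 20.6, 11.4 and 20.1 CPM in CD48-/lo MkPs and 1.22, 7.56, 5.53 and 6.90 CPM in CD48hi MkPs (1.71 ± 0.53, edgeR adjusted p = 0.187, DESeq2 0.0422). Dennd6b, another DENN-domain exchange factor, averaged 3.54 ± 1.25 CPM in CD48-/lo MkPs and 9.46 ± 4.96 CPM in CD48hi MkPs (SD, adjusted p = 0.218).

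Of 32 GTPase-activating proteins tested, Rabgap1l had the smallest p, with 435, 303 and 521 CPM in CD48-/lo MkPs, while CD48hi MkPs had 172, 253, 169 and 164 CPM (log2 difference 1.15 ± 0.29, edgeR adjusted p = 0.122, DESeq2 0.00699). Every CD48-/lo library was above every CD48hi library. Tbc1d16, which acts on Rab4, had 5.50, 3.60 and 5.01 CPM in CD48-/lo MkPs and 1.33, 2.22, 1.29 and 2.03 CPM in CD48hi MkPs (1.45 ± 0.41, edgeR adjusted p = 0.172, DESeq2 0.0171). Tbc1d10a, a GTPase-activating protein for Rab27a, had 16.1, 14.9 and 11.2 CPM in CD48-/lo MkPs and 27.5, 17.8, 54.1 and 40.7 CPM in CD48hi MkPs (-1.32 ± 0.40, edgeR adjusted p = 0.181, DESeq2 0.0243). The groups did not overlap for either gene.

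The machinery that anchors and recycles RABs had 7 genes, all tested. Rabggtb, the catalytic beta subunit of geranylgeranyl transferase, had 107, 45.4 and 110 CPM in CD48-/lo MkPs, while CD48hi MkPs had 27.3, 40.4, 38.5 and 49.0 CPM (log2 difference 1.18 ± 0.36, edgeR adjusted p = 0.181, DESeq2 0.0446). CD48-/lo replicate 3 again lay among the CD48hi libraries. Rabggta, the alpha subunit, was lower in every CD48-/lo library than in any CD48hi library (-0.36 ± 0.25, adjusted p = 0.482).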

How the data were processed

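Whole-number counts per gene and library were deposited, and these were made by the authors from sorted-cell RNA, primed on poly(A) tails with template switching, amplified and tagmented. Per the labels, the submitters' processing notes and the methods of the study, reads were checked with FastQC, aligned to mm10 with GSNAP (2020-12-16, Ensembl 98 splice sites) and counted by featureCounts (2.0.1) where uniquely aligned. Every row holds at least 11 counts over the libraries. Deposited normalised counts and derived tables were not used. All 57 RAB identifiers had the same start and end in GENCODE M21, and 19 shared exon bases with another gene. Reads of Rab11b and Rab7 may be split with processed copies, since Rab11b-ps2 (67.8 CPM) and Rab7-ps1 (46.7 CPM) have rows.

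The test was edgeR (4.0.16, R 4.3.3) with filterByExpr, TMM scaling, a prior count of 0.125 and no covariate, over 16653 genes holding 99.95% of counts. CPM use the TMM factors, and ± after a log2 difference is the SE. DESeq2 (1.42.0) and limma voom (3.58.1) were alternatives, beside other scalings, filters, libraries left out and a replicate block. Scripts were tested on simulated data. Library totals limit precision. The floor of 3 counts covers the counting error of the group at 0 only, and not that of the other group. Replicate correlations over genes were 0.921 to 0.957 (Spearman), so no pair was treated as a duplicate. Paralogue ratios were compared by exact permutation for pairs with means of at least 1 CPM.

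The RAB genes, their roles, the marker lists and the regulator lists were chosen with earlier results of these data known. Named were the granule RABs, RABs called by edgeR or DESeq2, the 10 largest differences at a mean log2 CPM of at least 1, the 6 highest per length, the highest CPM in each role group, RABs at 0 in a group, below the filter or without overlap, and, from each regulator list, genes called by edgeR or DESeq2 and the 3 with the smallest p. One gene that this rule names is not reported here. Unc13d, Hps3, Hps4, Hps5, Bloc1s3, Bloc1s4, Rab26, Rab34, Rab39, Rab6a, Rab8b and Rab10, the markers printed and Cd48 fall outside that rule and were chosen after their values were seen.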

Additional observations from a re-analysis of the deposited data

Results flagged for a closer look

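Of 29 RAB genes examined for a library that stood apart within the CD48hi group, 4 had one whose gap to the nearest library, divided by the range, exceeded Dixon's 95% critical value for 4 libraries. Chance alone gives such a gap in about 1 in 20 groups of normally distributed values, a rate that does not hold for counts near 0. Rab1a was highest in CD48hi replicate 5, at 570.0 CPM, and Rab32 in CD48hi replicate 1, at 302 CPM. Rab9b, at 0.231 CPM in CD48hi replicate 1, was at 0 in the other CD48hi libraries, so its gap equals its range at any count in replicate 1. Rab11a was lowest in CD48hi replicate 3, at 420 CPM. None of these 4 genes was called between the subsets. The CD48-/lo group, with 3 libraries, was not examined this way.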

How the results depend on the processing

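Over all genes edgeR called 32. RLE scaling gave 57 calls, no filter 10, a filter of 1 CPM in 3 libraries 64, DESeq2 1028, limma voom 393, an adjusted p under 0.1 gave 187, and leaving out 1 library gave 1 to 72. CD48-/lo replicate 3 as the one CD48-/lo library, an alternative chosen after seeing the data that assumes it varies like the others, gave 0 (1021 genes and 4 RABs at an unadjusted p under 0.05). RAB calls were 1 in the test reported, 0 with no filter (9 RABs at an unadjusted p under 0.05), 2 by DESeq2, 0 with CD48-/lo replicate 3 alone, and 0 to 1 with a library left out (4 to 11 at an unadjusted p under 0.05). Regulator calls were 0, 6 by DESeq2 and 2 by limma voom. The RAB median log2 difference of 0.01 was -0.044 with RLE, -0.071 with the stricter filter, -0.049 by DESeq2, -0.10 with CD48-/lo replicate 3 alone and -0.17 to 0.033 with a library left out, each over the RABs tested in the reported fit. All-gene medians were -0.023 with RLE, 0.093 with library totals, -0.16 with CD48-/lo replicate 3 alone (where the 56 RABs that fit tested had -0.17) and -0.095 to 0.057 with a library left out.

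Rab44 had a log2 difference of -3.80 with no filter (adjusted p = 0.0676), -3.13 with CD48-/lo replicate 3 alone (adjusted p = 0.418) and -4.48 to -3.41 with a library left out. Its call held with RLE, library totals, the stricter filter, DESeq2, limma voom, the replicate block, without mitochondrial genes and at a prior count of 2. Small differences changed sign for Rab1b (0.020 with CD48-/lo replicate 3 alone), for Rab11a (0.022 with library totals, 0.11 with CD48-/lo replicate 3 alone, -0.31 to 0.070 with a library left out) and for Rab37 (-0.048 to 0.23 with a library left out). The cause was not tested.

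Replicate numbers 1, 3 and 4 occur in both subsets. Correlations of same-numbered libraries' deviations from their group means were -0.080, -0.145 and -0.033, against -0.057 to 0.085 for differently numbered libraries. This check cannot show whether same-numbered libraries share a mouse or a sort, which the labels do not say. With that replicate block, over 6 libraries, 29 genes were called in all, with 1 RAB among them, Rab44 (log2 difference -3.56, adjusted p = 0.0268), and 0 regulators.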
